A study of Solanum chacoense with 24 samples.

Results

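The question here was whether leaves of 2 Solanum chacoense genotypes, USDA8380-1 (written 80-1 in the library titles) and EE501F2_093, answered feeding by the Colorado potato beetle differently. The members are libraries, chosen by their labels alone: all 16 of the 24 libraries that were harvested 24 or 48 h after beetle placement, with 4 libraries per genotype and arm (2 per hour). The 8 libraries of 0 h, taken before any beetle was placed, served as a background only. Solanum chacoense is a wild relative of potato, and USDA8380-1 is known as a source of leptines, steroidal glycoalkaloids of the leaf that deter this beetle. The labels used here give neither a pedigree nor a beetle phenotype for EE501F2_093.

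In potato and its relatives, chewing of a leaf is known to set off jasmonate signalling, and with it the making of proteinase inhibitors and other defence proteins, while glycoalkaloids are largely present beforehand. A difference in response between genotypes is an interaction: the change from control to beetle leaves in one genotype minus the same change in the other. A positive interaction here means a more positive change in USDA8380-1 than in EE501F2_093, and says nothing by itself about which genotype has the higher level.

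For each genotype, 6 plants grown from in vitro plantlets stood 2 to a cage. When plants were 15 weeks old, adult beetles starved for 6 h were put into the beetle cages (2 per genotype), while the control arm was 1 cage without beetles. The labels give 50 beetles without saying whether that is the number per cage. Each library came from pooled tissue of leaves at 1 fixed position on the stem, and the labels call the 2 pools of a group biological replicates without saying which plants went into which pool. Beetle and control plants never shared a cage, so a cage or plant difference and a beetle effect cannot be told apart in the later harvests alone. The same cages were sampled at 0, 24 and 48 h. The p-values below treat the 16 libraries as independent.

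The 16 libraries had 26527243 to 51999317 counts on genes. After the filter on low counts, 24404 gene identifiers were tested. No file or table pairs these identifiers with a gene name or product, so the tissue could not be checked against leaf markers, 0 genes carry a name, lists of jasmonate, proteinase inhibitor or glycoalkaloid genes could not be followed, and no sequence is printed. The log2 CPM (gene counts scaled to a common library size) of the 2 libraries of a group correlated at 0.895 to 0.963 across genes, lowest in the USDA8380-1 controls of 24 h, where 9326 genes were more than 2-fold apart. The biological coefficient of variation was 0.441 over the 16 libraries, 0.497 within USDA8380-1 and 0.376 within EE501F2_093. Without USDA8380-1 control 24 h replicate 2 it was 0.424 within USDA8380-1.

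The genotypes lay apart on the leading principal component, and the beetle arms overlapped within each genotype. On this component, which held 41.5% of the variance, the 8 USDA8380-1 libraries lay between 48.3 and 107.6 and the 8 EE501F2_093 libraries between -109.6 and -53.3. Within EE501F2_093, beetle libraries stood at -71.5 ± 19.9 (SD, n = 4) and controls at -100.5 ± 8.65 (SD, n = 4), and the arms overlapped. In USDA8380-1 the values were 94.5 ± 6.24 with beetles and 77.5 ± 31.7 in controls (SD, n = 4 each), again overlapping. The interaction of the scores was -12.0, with p = 0.625 in a two-sided exact permutation test that exchanged arms within the 4 genotype-by-hour strata (1296 arrangements, smallest possible p 0.00154). Scores of the next 3 components, the share of reads outside genes and the share of counts in the 100 most abundant genes gave p = 0.485 to 0.917 in the same exact test, and all 6 measures had an adjusted p of 0.917. Exchanging arms takes it that neither genotype had an arm difference. A shift shared by both genotypes widens the spread of the arrangements, so these p-values cannot show that the shifts were equal.

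**Figure D1:**
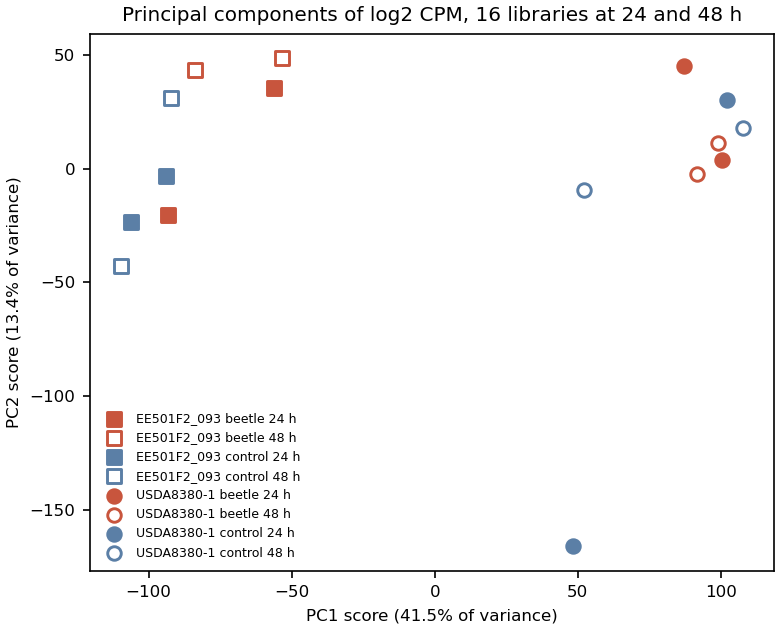
Scores of the 16 libraries on the first 2 principal components of log2 CPM; circles are USDA8380-1, squares EE501F2_093, blue controls, red beetle cages, filled 24 h and open 48 h. The genotypes lie on opposite sides of the horizontal axis, and USDA8380-1 control 24 h replicate 2 lies apart at -166 on the vertical axis.

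By edgeR's test, no gene passed an adjusted p of 0.05 for a difference in beetle response between the genotypes. For the interaction over both hours, edgeR's quasi-likelihood test called 0 of 24404 genes (0%), with a smallest adjusted p of 0.367, and DESeq2 called 12 (6 in each direction). At an unadjusted p under 0.05 edgeR counted 607 genes (2.49%), of which 214 (0.877%) had a positive interaction and 393 (1.61%) a negative one. This lean turned to 401 positive and 351 negative with the replicate number as a block. Without USDA8380-1 control 24 h replicate 2, the library that stood apart, that count was 974, and the count of calls was again 0. The median interaction of all genes tested was -0.04 on the log2 scale.

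The beetle effects from which the interaction is formed did not pass the test either. For USDA8380-1 there were 0 calls (0%) by edgeR over both hours and 136 by DESeq2. At an unadjusted p below 0.05 stood 1445 genes (5.92%), of which 757 (3.10%) were higher and 688 (2.82%) lower with beetles. That balance was not stable: it was 698 higher and 765 lower with RLE scaling and 891 higher and 1122 lower in DESeq2. It turned as well without a filter, with all 24 libraries in the fit, with the replicate block and in 5 of 16 fits that left out 1 library. For EE501F2_093 there were 0 calls (0%) by edgeR and 63 by DESeq2. Below that unadjusted p stood 1376 genes (5.64%), 883 (3.62%) higher and 493 (2.02%) lower. The balance turned to 698 higher and 873 lower without EE501F2_093 control 24 h replicate 1, and to 789 higher and 827 lower without USDA8380-1 control 24 h replicate 1. The plot of p-values shows more genes than an even spread in the lowest bin for each genotype's own effect and fewer for the interaction.

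**Figure D2:**
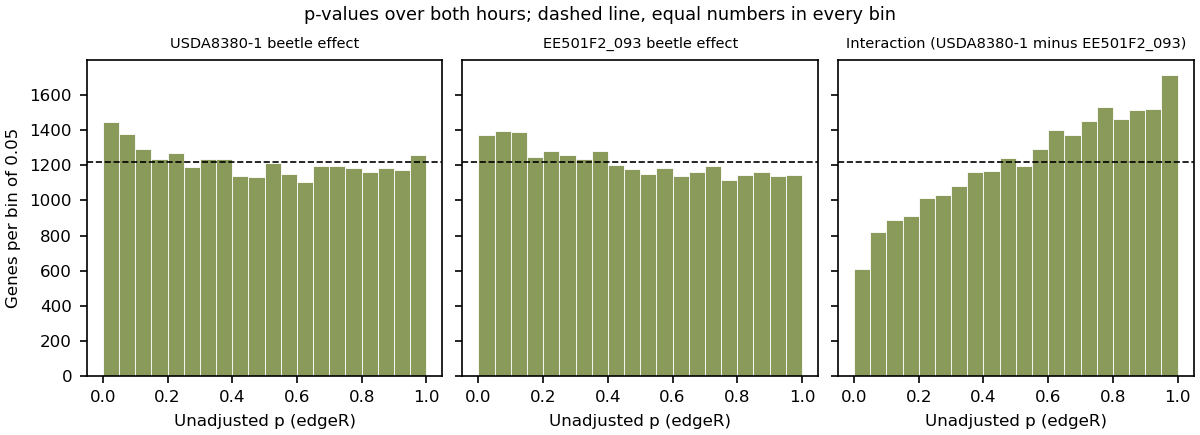
Number of genes per bin of unadjusted p (edgeR) for the beetle effect in USDA8380-1, in EE501F2_093 and for the interaction; the dashed line marks equal numbers in every bin. The lowest bin holds 1445, 1376 and 607 genes, and for the interaction the bins climb towards a p of 1.

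For the 14531 genes of at least 5 CPM the median standard error (SE) of an interaction was 0.37 on the log2 scale. The 95% interval of such a gene thus reached 0.80 to either side. The median absolute interaction of these genes was 0.18, and 657 of them had an absolute interaction of at least 1 and 135 of at least 2. The missing calls therefore do not show that the genotypes responded alike in single genes.

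Genes tended to move the same way in both genotypes. Across the 14531 genes of at least 5 CPM, the beetle effects of USDA8380-1 and EE501F2_093, which share no library, correlated at r = 0.504 (Spearman 0.482), and 68.0% had the same sign. This is a description across genes, which are not independent replicates. Of the 147 such genes at an unadjusted p under 0.05 in both genotypes, 106 were higher with beetles in both, 35 were lower in both, and 6 were lower in USDA8380-1 and higher in EE501F2_093.

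Counted by libraries that did not overlap, the 4 beetle libraries of USDA8380-1 lay above all 4 controls for 272 of 24404 genes (1.11%) and below them for 209 (0.856%). In EE501F2_093 these counts were 841 (3.45%) and 771 (3.16%). Both genotypes together had 38 genes (0.156%) above and 8 genes (0.0328%) below. Opposite and without overlap were 6 genes (0.0246%), 2 of them (0.00820%) above the controls in USDA8380-1 and 4 (0.0164%) above them in EE501F2_093.

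**Figure D3:**
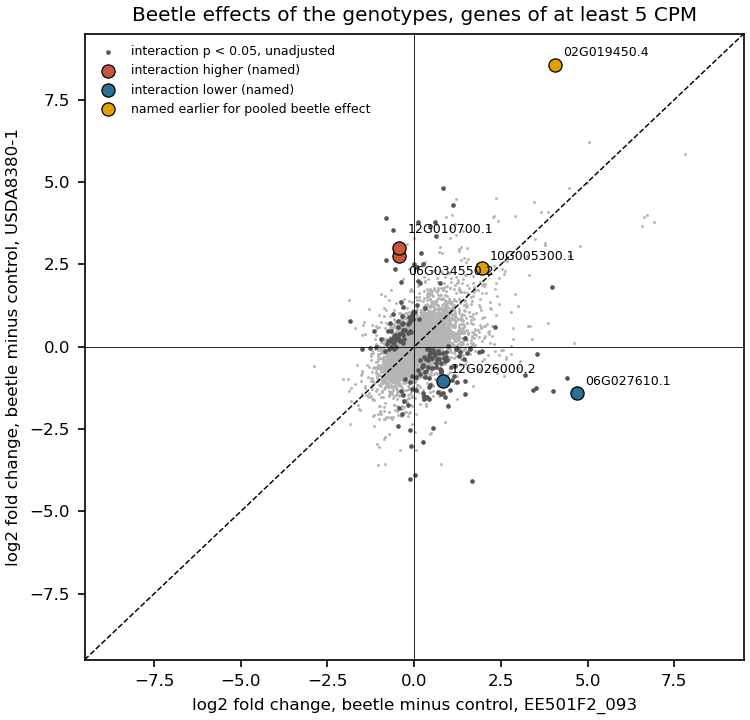
Beetle effect (log2 fold change of beetle over control cages, 24 and 48 h averaged) in EE501F2_093 on the horizontal axis and USDA8380-1 on the vertical axis, 1 point per gene of at least 5 CPM; dark points have an unadjusted interaction p under 0.05 and the dashed line marks equal effects. Named genes with a positive interaction sit above the line and those with a negative one below it; Soltu.DM.06G027610.1 lies at 4.68 and -1.41.

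Of the 6 genes described library by library, 4 were chosen by their interaction (the smallest p in each direction among genes of at least 5 CPM), so their values are a description. None of the 6 passed edgeR's test for the interaction, and DESeq2 passed 3 of them. The gene with the smallest p of all lay under 5 CPM. Chromosomes are read from the 2 digits after DM in the identifier.

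Soltu.DM.06G034550.2, on chromosome 6, was higher in beetle leaves of USDA8380-1. In EE501F2_093 its mean was lower with beetles, at 55.7 ± 10.9 CPM against 74.1 ± 16.9 CPM in controls (SD, n = 4 each). In USDA8380-1 controls it had 12.8 and 10.6 CPM at 24 h and 8.57 and 20.3 CPM at 48 h. With beetles it had 81.5 and 145.0 CPM at 24 h and 102.0 and 32.3 CPM at 48 h, so that all 4 beetle libraries lay above all 4 controls. In EE501F2_093 it had 57.6 and 92.6 CPM in controls at 24 h and 62.2 and 83.9 CPM at 48 h. The beetle libraries of EE501F2_093 had 47.2 and 47.7 CPM at 24 h and 57.5 and 70.4 CPM at 48 h, overlapping with the controls. Of the 4 USDA8380-1 beetle libraries, 1 lay below the range of the EE501F2_093 controls, 1 within it and 2 above it.

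The effect of Soltu.DM.06G034550.2 was 2.75 (SE 0.41) on the log2 scale in USDA8380-1 and -0.43 (SE 0.38) in EE501F2_093. Its interaction was 3.17 (SE 0.55, 95% interval 1.98 to 4.36), with an adjusted p of 0.446 in edgeR's test and 0.000101 in DESeq2. Leaving out 1 library gave 2.88 to 3.58, with adjusted p of 0.0720 to 1 in edgeR's test. Before beetles the same contrast was 1.56 (SE 0.65, edgeR adjusted p = 0.448), and with it subtracted the interaction was 1.59 (edgeR adjusted p = 0.992). At 0 h, USDA8380-1 had 20.5 and 11.1 CPM in control plants and 35.2 and 25.4 CPM in plants assigned to beetles, without overlap. The 25.4 CPM came from a library of low depth, with 64 counts of this gene. EE501F2_093 had 89.9 and 46.7 CPM in control plants and 30.2 and 60.3 CPM in plants assigned to beetles, which overlap.

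Soltu.DM.12G010700.1, on chromosome 12, had a like pattern at a lower level. USDA8380-1 controls had 1.26 and 1.65 CPM at 24 h and 0.412 and 0.791 CPM at 48 h. USDA8380-1 beetle libraries had 6.44 and 9.29 CPM at 24 h and 13.5 and 1.14 CPM at 48 h, where replicate 2 of 48 h fell within the controls. In EE501F2_093 the controls had 9.87, 11.96, 6.82 and 10.4 CPM and the beetle libraries 6.08, 3.81, 7.94 and 12.7 CPM, which overlap. Its interaction was 3.44 (SE 0.85, 95% interval 1.62 to 5.26, edgeR adjusted p = 1; DESeq2 adjusted p = 0.0495). Leaving out 1 library gave 2.35, without USDA8380-1 beetle 48 h replicate 1, to 3.74. At 0 h it was 0.38 (SE 1.06), and with that subtracted 3.08 (edgeR adjusted p = 0.992).

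Soltu.DM.06G027610.1, on chromosome 6, was read at far higher levels in USDA8380-1 and had the smallest p among negative interactions of genes of at least 5 CPM. In USDA8380-1 it had 59.8, 57.3, 12.3 and 66.2 CPM in the controls and 12.8, 10.9, 20.4 and 34.5 CPM in the beetle libraries (24 h replicates, then 48 h replicates). The arms overlapped through control 48 h replicate 1. In EE501F2_093 the controls had 1, 1, 2 and 1 counts, which is 0.0212 to 0.0643 CPM. The beetle libraries of EE501F2_093 had 23, 98, 39 and 8 counts, which is 0.254 to 2.21 CPM and above every control.

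The ratio of summed counts of Soltu.DM.06G027610.1 between the arms of EE501F2_093 was 32.8 (exact 95% interval 13.8 to 102, counting error only). In USDA8380-1 that ratio was 0.413 (0.395 to 0.432). The interaction was -6.09 (SE 1.06, 95% interval -8.38 to -3.80, edgeR adjusted p = 0.446; DESeq2 adjusted p = 5.41e-05). Leaving out 1 library gave -6.55 to -5.51, with adjusted p of 0.0504 to 1 in edgeR's test.

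The same contrast of Soltu.DM.06G027610.1 was already there before beetles. At 0 h, USDA8380-1 had 101.0 and 214.4 CPM in control plants and 14.1 and 9.13 CPM in plants assigned to beetles. EE501F2_093 had 0.424 and 0.265 CPM in control plants and 3.57 and 2.63 CPM in plants assigned to beetles. The 0 h interaction was -6.85 (SE 0.66, edgeR adjusted p = 0.0228), and it was -6.61 (adjusted p = 0.162) without the shallow library USDA8380-1 beetle 0 h replicate 3. With the 0 h contrast subtracted, the interaction over both hours was 0.76 (edgeR adjusted p = 1).

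Soltu.DM.12G026000.2, on chromosome 12, was the named gene whose arms separated in opposite directions in the genotypes. USDA8380-1 had 13.2, 16.9, 15.6 and 16.8 CPM in controls and 9.18, 5.69, 4.39 and 10.95 CPM with beetles, so all beetle libraries were lower. EE501F2_093 had 3.34, 2.53, 1.87 and 3.61 CPM in controls and 7.10, 4.75, 4.51 and 4.03 CPM with beetles, so all beetle libraries were higher. The effects were -1.05 (SE 0.30) and 0.82 (SE 0.31), and the interaction was -1.87 (SE 0.43, 95% interval -2.80 to -0.95, edgeR adjusted p = 1; DESeq2 adjusted p = 0.0663). At 0 h it was -0.86 (SE 0.48, edgeR adjusted p = 0.542), and with that subtracted -1.04 (adjusted p = 0.992). The arms were ordered the same way without overlap at 0 h already, before any beetle was placed. USDA8380-1 then had 11.3 and 12.9 CPM in control plants and 10.8 and 7.54 CPM in plants assigned to beetles. The 7.54 CPM came from the shallow library. EE501F2_093 had 5.12 and 3.25 CPM in control plants and 6.22 and 5.55 CPM in plants assigned to beetles.

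The remaining genes, Soltu.DM.02G019450.4 and Soltu.DM.10G005300.1, had been named earlier from these libraries for their beetle effect averaged over both genotypes. That choice used the sum of the effects and not their difference. A single extreme library moves both, so the interaction test on these genes is not independent of their choice. Soltu.DM.10G005300.1, on chromosome 10, was higher with beetles without overlap in both genotypes, and was so at 0 h already, before any beetle was placed. It had 17.1, 9.15, 5.59 and 4.26 CPM in USDA8380-1 controls and 31.1, 84.55, 37.5 and 24.3 CPM with beetles. In EE501F2_093 it had 8.86, 4.34, 8.33 and 4.39 CPM in controls and 22.5, 28.7, 27.5 and 21.0 CPM with beetles. The effects were 2.39 (SE 0.36) and 1.94 (SE 0.36), and their difference of 0.44 (SE 0.49) did not pass the test, with a 95% interval of -0.62 to 1.503 (unadjusted p = 0.383, edgeR adjusted p = 1). Leaving out 1 library gave 0.17, without USDA8380-1 beetle 24 h replicate 2, to 0.75, without its beetle 24 h replicate 1. With the 0 h contrast subtracted, the interaction of Soltu.DM.10G005300.1 was -0.40 (edgeR adjusted p = 1). At 0 h USDA8380-1 had 21.3 and 12.1 CPM in control plants and 31.5 and 74.99 CPM in plants assigned to beetles. The 74.99 CPM came from the shallow library. EE501F2_093 had 9.66 and 8.17 CPM in control plants and 16.9 and 15.2 CPM in plants assigned to beetles. These 0 h differences were 1.65 (SE 0.43, edgeR adjusted p = 0.162) and 0.85 (SE 0.42) on the log2 scale. How much of the later effects was there before beetles was not tested.

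Soltu.DM.02G019450.4, on chromosome 2, was also higher with beetles in both genotypes, and its interaction rested on 1 library. USDA8380-1 beetle 24 h replicate 2 had 130.2 CPM, against 1.73, 2.28 and 7.505 CPM in the other USDA8380-1 beetle libraries and at most 0.170 CPM in their controls. In EE501F2_093 the beetle libraries had 2.52 to 3.20 CPM and the controls 0 to 0.361 CPM. At 0 h its control plants had 0.620 and 3.10 CPM, the latter within the range of those beetle libraries. Its plants assigned to beetles had 0.248 and 0.333 CPM at 0 h. The interaction over both hours was 4.52 (SE 1.77, edgeR unadjusted p = 0.0235, adjusted p = 1), and 1.45 without USDA8380-1 beetle 24 h replicate 2. It was 3.86 in a fit of 8 separate group means and 0.46 with the 0 h contrast subtracted. That 0 h contrast was 3.96 (edgeR adjusted p = 0.593), and 0.028 without the shallow library USDA8380-1 beetle 0 h replicate 3. The shallow library had 5 counts of this gene (1.98 CPM), and USDA8380-1 beetle 0 h replicate 2 had 1. For this gene too, subtraction without the shallow library was not tested.

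**Figure D4:**
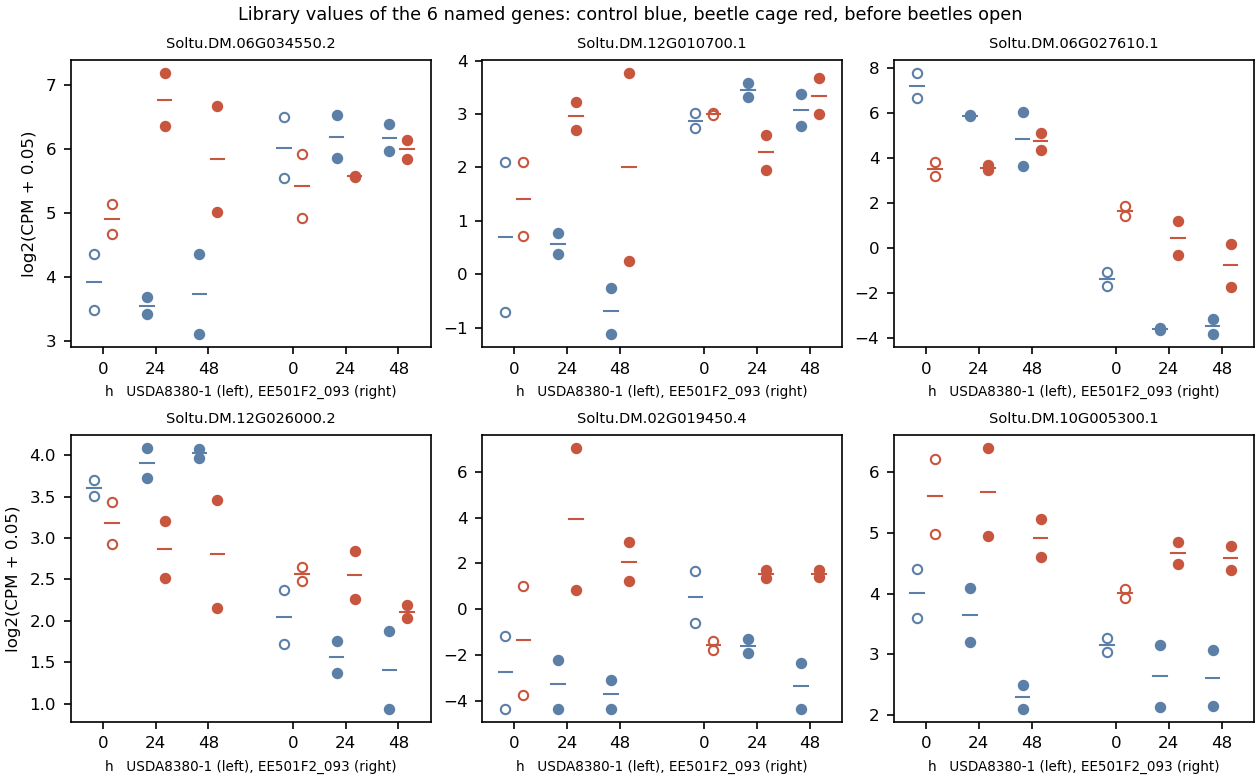
log2(CPM + 0.05) of the 6 named genes in each library; within a panel USDA8380-1 is on the left and EE501F2_093 on the right at 0, 24 and 48 h, blue marks controls, red beetle cages, open points the libraries of 0 h (scaled apart from the others) and short lines the mean of 2 libraries. Soltu.DM.06G027610.1 shows its opposite arm differences at 0 h already, and Soltu.DM.02G019450.4 has 1 beetle library of USDA8380-1 far above the rest.

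The interaction was set against the same contrast at 0 h, in libraries that played no part in it but came from the same cages. At 0 h edgeR called 12 of 23678 genes (0.0507%), 2 positive and 10 negative, with 2522 genes (10.7%), 980 positive (4.14%) and 1542 negative (6.51%), at an unadjusted p under 0.05. With all 24 libraries in 1 fit the lean turned to 985 positive and 841 negative. The number of 0 h calls depended on single libraries. It was 3 without USDA8380-1 beetle 0 h replicate 3, the library of low depth, and 0 to 6 without any of 6 others, among them 0 without EE501F2_093 control 0 h replicate 2. It was 395 without USDA8380-1 beetle 0 h replicate 2, which left the shallow library alone in its group.

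Genes with a small interaction p at 24 and 48 h leaned the same way at 0 h more often than all genes did. Of the 393 genes with a negative interaction at an unadjusted p under 0.05 later, 350 were tested at 0 h. Of these, 265 (75.7%) were negative there as well, against 50.3% of all genes, and 89 (25.4%) were so at an unadjusted p under 0.05, against 6.36% of all genes. Of the 214 positive ones 203 were tested, 152 (74.9%) were positive at 0 h, against 49.7% of all genes, and 32 (15.8%) at an unadjusted p under 0.05, against 4.17%. Without the shallow library, 83 of the negative genes (23.7%, against 5.38% of all genes) and 34 of the positive genes (16.7%, against 2.96%) were at an unadjusted p under 0.05 in the same direction. Across genes of at least 5 CPM the 2 contrasts correlated at r = 0.196 (Spearman 0.153).

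The 10 genes with a negative call at 0 h were followed in the later libraries, a choice made after seeing the data that used no library of 24 or 48 h. All 10 were negative over both hours, and 8 of them at an unadjusted p under 0.05, where the background was 1.61% of genes. Soltu.DM.06G027610.1 is 1 of the 10. None was called (adjusted p at least 0.446 in edgeR's test). Their later interactions lay between -6.09 and -0.20, with a median of -4.40, and they are spread over 6 chromosomes by their identifiers. Of the 2 genes with a positive call at 0 h, 1 was positive later and 0 were at an unadjusted p under 0.05. Their median was 5.46 at 0 h and -0.89 later, and the later median was 0.69 without USDA8380-1 control 24 h replicate 2. When the negative set was called without the shallow library it held 3 genes, 2 of which were at an unadjusted p under 0.05 later.

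Summed over these 10 genes, EE501F2_093 had 9.82 and 9.08 CPM in control plants at 0 h and 42.8 and 33.1 CPM in plants assigned to beetles. USDA8380-1 had 860 and 1192 CPM in control plants at 0 h and 145.0 and 141.7 CPM in plants assigned to beetles. The 141.7 CPM came from the shallow library and rests on 357 counts, against 5446 counts for the 145.0 CPM. At 24 h the USDA8380-1 sums were 390.9 and 203.0 CPM in controls and 137.6 and 65.7 CPM with beetles, and at 48 h 63.1 and 413.9 CPM in controls and 133.2 and 244.4 CPM with beetles. The order of the arms in USDA8380-1 was the same at 24 h as at 0 h, and the arms overlapped at 48 h through control replicate 1. In EE501F2_093 the sums were 6.28 and 6.51 CPM in controls and 15.9 and 22.9 CPM with beetles at 24 h. At 48 h they were 29.9 and 12.1 CPM in controls and 18.6 and 31.7 CPM with beetles, which overlap.

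**Figure D5:**
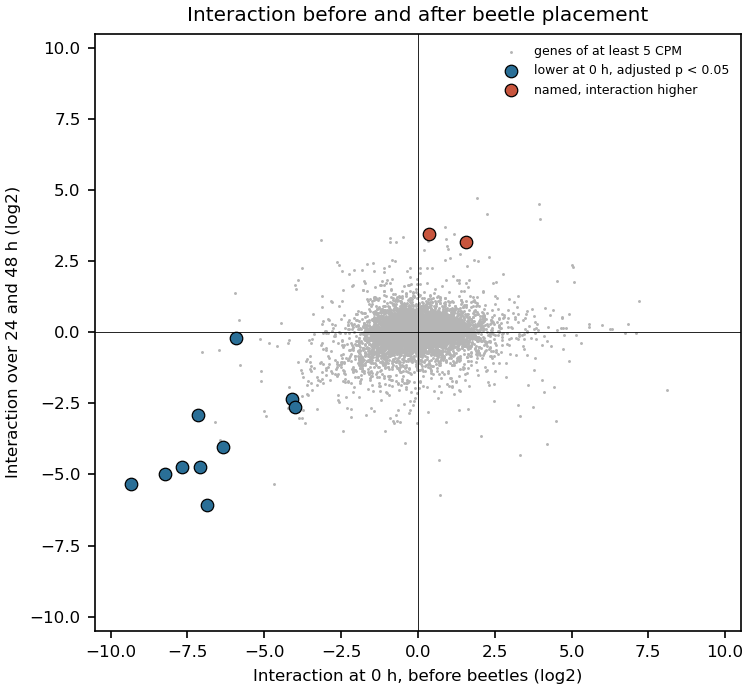
Interaction at 0 h (horizontal axis, log2) and over 24 and 48 h (vertical axis, log2); grey points are genes of at least 5 CPM, blue points the 10 genes with a negative call at 0 h and red points the 2 named genes with a positive interaction. The blue points all lie below 0 on both axes, with later values from -6.09 to -0.20.

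Across genes of at least 5 CPM, the interactions at 24 and 48 h correlated at r = -0.0997 (Spearman -0.281), and 37.3% of these genes had the same sign at both hours. Over all 24404 genes tested the coefficient was r = 0.0541 (Spearman -0.0971), with the same sign in 42.3%. At 24 h 952 genes (3.90%) had an unadjusted p under 0.05, 269 positive (1.10%) and 683 negative (2.80%). At 48 h there were 331 (1.36%), 129 positive (0.529%) and 202 negative (0.828%), and edgeR called 0 at either hour. The change of the interaction from 24 to 48 h had 0 calls in edgeR and 0 in DESeq2. At an unadjusted p under 0.05 edgeR had 797 genes (3.27%), 573 of them (2.35%) with a higher interaction at 48 h and 224 (0.918%) with a lower one. The balance turned in 3 of 16 fits that left out 1 library: 1472 higher and 2026 lower without USDA8380-1 control 24 h replicate 1, 454 and 458 without USDA8380-1 beetle 24 h replicate 1, and 491 and 554 without EE501F2_093 control 48 h replicate 2. Leaving out 1 library moved that count to between 328, without EE501F2_093 beetle 24 h replicate 2, and 3498, without USDA8380-1 control 24 h replicate 1.

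The 4 genes chosen by their interaction had the same sign at both hours. For Soltu.DM.06G034550.2 the interaction was 3.94 at 24 h and 2.41 at 48 h, and for Soltu.DM.12G010700.1 it was 3.58 and 3.36. For Soltu.DM.06G027610.1 the values were -7.67 and -4.51, and for Soltu.DM.12G026000.2 they were -2.03 and -1.72. Their average over the hours chose them, which favours like signs.

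Groups of genes that need no names differed in how often they reached an unadjusted p under 0.05, beside 2.49% of all genes. At 0 h edgeR called 5225 of 23678 genes (22.1%) between the genotypes, and those also tested later are followed here; 4438 genes (18.7%) were higher and 3794 (16.0%) lower in USDA8380-1 at an unadjusted p under 0.05. Among 2864 genes called higher in USDA8380-1 at 0 h, 131 (4.57%) did, 113 of them with a negative interaction, and the median interaction was -0.32. The median beetle effect of these genes was 0.04 in USDA8380-1 and 0.39 in EE501F2_093. Among 2299 genes called lower in USDA8380-1 at 0 h, 117 (5.09%) did, 74 of them positive, with a median of 0.08. Their median beetle effect was -0.05 in USDA8380-1 and -0.17 in EE501F2_093. Genes not called between the genotypes at 0 h reached it in 305 of 18277 cases (1.67%). The groups differed in precision. The median SE of the interaction was 0.74 in genes called higher, 0.61 in genes called lower and 0.44 in genes not called.

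Reads of the other genotype were looked for with genes read almost only in 1 genotype at 0 h. The 9 genes of this kind in USDA8380-1 had 15.9 to 34.9 CPM in sum in its later libraries. In EE501F2_093 they had 0 to 0.349 CPM with beetles (0 to 11 counts) and 0 to 0.212 CPM in controls (0 to 10 counts), which overlap. The 28 genes of this kind in EE501F2_093 summed to 145.6 to 233.7 CPM there, and to 0.140 to 1.28 CPM with beetles and 0.221 to 0.882 CPM in controls of USDA8380-1.

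By level, 5.23% of 4739 genes under 1 CPM, 3.37% of 5134 genes of 1 to 5 CPM, 1.37% of 10951 genes of 5 to 50 CPM and 1.01% of 3580 genes of 50 CPM or more were at an unadjusted p under 0.05. The median SE was 1.17 in the lowest of these classes and 0.39 in the highest. Among the 100 most abundant genes there were 0, with interactions between -1.71 and 1.81 and a smallest unadjusted p of 0.122.

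By chromosome the share at an unadjusted p under 0.05 ranged from 1.85% on chromosome 7 (32 of 1727 genes) to 3.20% on chromosome 3 (80 of 2503 genes). The median interaction lay between -0.05 and -0.02 on all 12 chromosomes. Neighbouring identifiers with the same sign at an unadjusted p under 0.05 formed 4 runs of 3 or more genes, 1 positive and 3 negative, with 14 genes in all. The longest was 5 genes on chromosome 10, all negative, with interactions between 0.97 and 4.49 in size and means of 1.04 to 257.8 CPM. Whether reads were shared between near-identical neighbours cannot be told from these counts.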

How the data were processed

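Per the labels' protocols, RNA of pooled leaf tissue went into stranded mRNA libraries that were sequenced as single reads of 50 nt. Per the submitters' processing notes, Trimmomatic 0.35, STAR 2.7.3a, Picard and HTSeq were used; what parameters, genome build and annotation they ran with is not given in the sources used here. Deposited by the authors were raw counts of reads per gene identifier. The 5 summary lines below the genes, 8.91 to 11.9% of reads, were left out of library sizes and tests.

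Counts of the 16 libraries were filtered (filterByExpr by group), normalised by TMM and fitted in R 4.3.3 with edgeR 4.0.16, whose quasi-likelihood F test gave the p-values. The design had 4 genotype-by-hour strata and 1 beetle effect per genotype (10 residual degrees of freedom), and p-values were adjusted by Benjamini-Hochberg over all genes tested, with calls at 0.05. The change between hours used 8 group means, and the 0 h contrasts a fit of the 8 libraries of 0 h, whose CPM are scaled apart. DESeq2 1.42.0 was an alternative. Each SE is the log2 fold change divided by the square root of its F value, and principal components used a prior count of 2. The scripts were tested on simulated data.

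Members, lists and rules were chosen with earlier results of these data known. Named genes are, in each direction, the 2 of at least 5 CPM with the smallest interaction p, plus 2 genes named in an earlier analysis. The planned lists by gene name could not be used. Genes read almost only in 1 genotype had at least 2 CPM in every 0 h library of it and under 0.05 CPM in every 0 h library of the other, the shallow library left out. Replicate numbers were checked for pairing by correlating the difference between replicates 1 and 2 across groups of a genotype. The correlation ran from -0.271 to 0.068 in 3 pairs of USDA8380-1 groups, with 0 over 0.1. In 6 pairs of EE501F2_093 groups it ran from -0.287 to 0.276, with 4 over 0.1. The main fit did not take the numbers to pair libraries, and a fit with them as a block was an alternative.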

Additional observations from a re-analysis of the deposited data

Results flagged for a closer look

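A total of 48 sets of 4 libraries were looked at, each a genotype and arm over both hours, and in 5 sets a single library lay far away. Chance flags about 1 in 20 sets, and the sets hold 2 hours and overlapping measures. On the fourth principal component USDA8380-1 control 48 h replicate 3 stood at 55.3 (others -37.8 to -29.4), USDA8380-1 beetle 24 h replicate 2 at -66.1 (others 23.7 to 34.4) and EE501F2_093 beetle 48 h replicate 2 at -62.2 (others 25.6 to 32.6). USDA8380-1 control 48 h replicate 1 had 12.3 CPM of Soltu.DM.06G027610.1, where the other controls had 57.3 to 66.2 CPM. USDA8380-1 beetle 24 h replicate 2 had 130.2 CPM of Soltu.DM.02G019450.4, where the other beetle libraries had 1.73 to 7.505 CPM.

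For Soltu.DM.12G026000.2 every beetle library lay below every control in USDA8380-1 and above every control in EE501F2_093. The difference of the effects was -1.87 and did not pass edgeR's test (adjusted p = 1), and the gene had been chosen by it.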

How the results depend on the processing

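The interaction over both hours had 0 calls in edgeR with RLE scaling, without a filter, with 8 group means, with all 24 libraries, with robust dispersions, with a minimum log2 change of 1, with the 0 h contrast subtracted and in all 16 fits that left out 1 library. DESeq2 called 12 genes for the interaction, 136 for USDA8380-1, 63 for EE501F2_093 and 458 for the 0 h interaction; the cause was not tested. With the replicate number as a block within genotype the interaction had 0 calls (752 genes at an unadjusted p under 0.05), and the 0 h interaction 95. With all 24 libraries in 1 fit the 0 h interaction had 0. Leaving out 1 library gave 0 to 14 calls for USDA8380-1, with 14 without beetle 24 h replicate 1 and 1 without beetle 48 h replicate 2, and 0 to 395 for the 0 h interaction.

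Genes at an unadjusted p under 0.05 in these fits numbered 426 to 974 for the interaction (607 with all libraries). They numbered 787 (without beetle 24 h replicate 2) to 2408 (without control 24 h replicate 1) for USDA8380-1 and 786 (without beetle 48 h replicate 1) to 2021 (without USDA8380-1 control 24 h replicate 2) for EE501F2_093, with 811 without EE501F2_093 control 24 h replicate 2 and 913 without its beetle 24 h replicate 1. For the change between hours they were 416 to 488 without any 1 of USDA8380-1 control 48 h replicate 1, its beetle 48 h replicate 1, EE501F2_093 control 48 h replicate 1 and its beetle 48 h replicate 2, and 1277 without EE501F2_093 control 24 h replicate 2. For the 0 h interaction they were 1354 without USDA8380-1 control 0 h replicate 2, 1167 without EE501F2_093 beetle 0 h replicate 1 and 5768 without USDA8380-1 beetle 0 h replicate 2. A minimum log2 change of 1 left 284, 428 and 280. With the 0 h contrast subtracted, Soltu.DM.06G027610.1 changed sign to 0.76 and Soltu.DM.10G005300.1 to -0.40. The 0 h contrast of Soltu.DM.10G005300.1 was 0.80, and 0.11 without the shallow library. Subtraction without that library was not tested. DESeq2 passed 3 of the 4 genes chosen by their interaction. Each genotype had 4 libraries per arm and 1 control cage. The median SE of the interaction was 1.17 for genes under 1 CPM and 0.39 for those of 50 CPM or more.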
